A study of Homo sapiens with 12 samples.

Results

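The NADPH oxidase genes described here were the rows of the deposited tables whose symbol was CYBB, CYBA, NCF1, NCF1B, NCF1C, NCF4 or RAC2, 7 genes of 32287 listed in the series. All 7 were listed and tested in each of 4 tables. Of these, 5 code for proteins of the enzyme, and NCF1B and NCF1C are pseudogene copies of NCF1. The 7 rows do not cover every component of the complex. The study targeted IGF2BP3, which binds RNA, in 2 human myeloid cell lines and compared their RNA. MOLM13 is an acute myeloid leukemia line with monocytic features. Its cells received lentivirus with the control hairpin shNS or with hairpin 1 (shBP3-1) or hairpin 2 (shBP3-2) against IGF2BP3. U937 cells whose IGF2BP3 carries a mini-auxin-inducible degron (U937 BP3-mAID) were left untreated (NT) or were given 5-Ph-IAA, which triggers breakdown of the tagged protein, for 6 h or 24 h. All U937 groups carry the tagged protein, and all MOLM13 groups were transduced. Each of the 6 groups had 2 libraries. Whether these were separate cultures, and whether the degron line is 1 clone, is not given in the sources used here.

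The phagocyte NADPH oxidase moves electrons from cytosolic NADPH across a membrane to oxygen and makes superoxide. Its membrane core, flavocytochrome b558, joins the catalytic subunit gp91phox (CYBB, also called NOX2) and p22phox (CYBA), which stabilise each other. In resting cells the organiser p47phox (NCF1) and p40phox (NCF4) wait in the cytosol. On activation p47phox is phosphorylated, binds p22phox, and brings the cytosolic subunits to the core together with the small GTPase RAC2. Loss of these subunits causes chronic granulomatous disease or related neutrophil defects, and their expression rises as myeloid cells mature.

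NCF1 and its copies are shown first, because their near identity decides how their counts can be read. NCF1 lies on chromosome 7 from 74773962 to 74789315 (plus strand), NCF1B from 73220624 to 73235945 (plus) and NCF1C from 75156639 to 75172044 (minus), in GENCODE release 29 on GRCh38. The copies differ from NCF1 at a known place at the start of exon 2, where the coding gene holds the dinucleotide GT as a repeat and each copy holds it once, which shifts the reading frame. Capitals mark that GT run in the transcript sequences of GENCODE 29, each with 20 bases on either side.
NCF1 (chr7:74777267-74777270): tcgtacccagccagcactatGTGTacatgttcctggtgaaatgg
NCF1B (chr7:73223878-73223879): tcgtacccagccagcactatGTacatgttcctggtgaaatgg
NCF1C (chr7:75168709-75168710): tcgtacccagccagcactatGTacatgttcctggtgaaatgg
The NCF1 window held 2 copies of GT, and the windows of NCF1B and NCF1C held 1 and were otherwise identical to it. Along their full transcripts NCF1 and NCF1C had 8 mismatches in 1394 aligned bases (99.4% identical). Of all stretches of 50 bases in the NCF1 transcript, 84.5% also occur in a transcript of NCF1B or NCF1C. The share was 64.5% for 100 bases and 45.4% for 150 bases. The read length, the treatment of reads that match several places and the strand setting of the counting are not given in the sources used here. The split of counts among the 3 rows is therefore uncertain, and their sum is given beside them.

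Sequence before the RefSeq start is shown as a description of those coding genes for which it was at hand, which left out NCF4 and RAC2. Its part in any change of these genes was not tested. The RefSeq promoter table on GRCh38.p14 held 3 of the 7 members. These were CYBB, NCF1 and CYBA. The 250 bases before each RefSeq start were searched on both strands for 3 motifs, and capitals mark the matches: GAGGAA (the core bound by the myeloid factor PU.1), CCAAT (the CCAAT box) and the interferon response pair (GAAA, any 2 bases, then GAAA).
CYBB (chrX:37779809-37780058, plus strand): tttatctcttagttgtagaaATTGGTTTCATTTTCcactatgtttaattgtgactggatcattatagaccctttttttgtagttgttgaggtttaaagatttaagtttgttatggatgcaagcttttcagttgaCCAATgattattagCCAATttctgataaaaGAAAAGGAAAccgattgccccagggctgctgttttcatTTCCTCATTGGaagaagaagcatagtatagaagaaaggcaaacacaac
NCF1 (chr7:74773761-74774010, plus strand): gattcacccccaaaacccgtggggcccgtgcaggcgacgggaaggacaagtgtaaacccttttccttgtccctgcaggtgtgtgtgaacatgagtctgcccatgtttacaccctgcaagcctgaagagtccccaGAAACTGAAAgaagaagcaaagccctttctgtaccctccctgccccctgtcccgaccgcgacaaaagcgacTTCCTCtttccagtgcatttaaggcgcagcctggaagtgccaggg
CYBA (chr16:88651054-88651303, minus strand): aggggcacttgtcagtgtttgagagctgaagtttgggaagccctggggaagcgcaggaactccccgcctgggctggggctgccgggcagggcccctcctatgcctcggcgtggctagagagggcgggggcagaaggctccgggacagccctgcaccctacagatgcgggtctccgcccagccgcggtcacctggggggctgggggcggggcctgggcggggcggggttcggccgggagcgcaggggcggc
GAGGAA matched once in CYBB, 48 to 43 bases before the RefSeq start, and once in NCF1, 45 to 40 bases before it, on the reverse strand in each. It occurs in 23.4% of 27305 promoter windows of that length. Each window shown runs past the start of its gene in GENCODE, which lies at 37780011 for CYBB, 74773962 for NCF1 and 88651152 for CYBA. Both GAGGAA matches therefore lie inside the gene by GENCODE, and which start is used in these cells was not tested. CCAAT had 4 matches in CYBB, one of which adjoins the GAGGAA match, and 0 in NCF1, and it occurs in 33.0% of windows. The interferon response pair had 2 matches in CYBB, of which one adjoins a CCAAT match, and 1 in NCF1. It occurs in 3.07% of windows. None of the 3 motifs was in the CYBA window. These are matches of letters and say nothing about binding.

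Each deposited table lists for every gene its normalised reads averaged over the 4 libraries compared, its log2 fold change and its DESeq2 adjusted p. Levels here are group means worked out from these columns, and they carry no SD because the tables do not list single libraries. The normalised counts summed on average over the libraries to 22544600 for the hairpin 1 table, 22028600 for hairpin 2, 11826900 for 6 h and 12360800 for 24 h. Rose and fell are used for a deposited adjusted p under 0.05. IGF2BP3 mRNA, the check of the knockdown labels, stood at 40.0% of shNS with hairpin 1 and 48.8% with hairpin 2 (log2 fold changes -1.32 and -1.03 in the authors' deposited tables). In U937 the agent acts on the protein, which was not measured here, so its mRNA checks no label: it stood at 480.1 and 399 normalised reads at 6 h (-0.27, adjusted p = 0.17) and at 505 and 563 at 24 h (0.15, adjusted p = 0.25), by the authors' deposited tables. Of 10 myeloid markers all were listed in both lines, at a summed level of 1802 CPM in shNS and 372 CPM in untreated U937, where CPM puts a group's normalised reads on the counts-per-million scale. CD14 and MPO stood at 47.4 and 416 normalised reads in shNS but at 0.530 and 0.187 in untreated U937, so these markers were at or near 0 in that line. The summed myeloid level was 7264 CPM with hairpin 1 and 11594 with hairpin 2, most of it lysozyme (LYZ) in both, and 496 at 6 h and 656 at 24 h. Markers of T, NK and erythroid cells, megakaryocytes and fibroblasts summed to between 0 and 2.12 CPM in every group. B cell markers summed to 47.9 in shNS, 74.7 with hairpin 1, 30.2 with hairpin 2, 20.3 in untreated U937, 14.4 at 6 h and 11.7 at 24 h, mainly through PAX5. Epithelial markers summed to 42.2 in shNS, 41.7 with hairpin 1 and 26.5 with hairpin 2, mainly through KRT18, and none was listed in U937. In a bulk sample fewer cells of a kind and less RNA per cell cannot be told apart.

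In MOLM13 with hairpin 1, 5 of the 7 genes rose and 0 fell by the authors' deposited table, in which 17.7% of all tested genes rose and 16.0% fell. CYBB and the 3 NCF1 rows rose at least 3.14-fold, NCF4 rose 1.37-fold, and CYBA and RAC2 did not pass the test. The median log2 fold change of the 7 was 1.65, against -0.01 over all tested genes. The 3 NCF1 rows weigh on this median, and the middle value of the coding genes alone was that of NCF4, 0.45. Without the pseudogene rows 3 of the remaining genes had risen. With hairpin 2, 6 of the 7 rose and RAC2 fell, in a table where 19.4% of tested genes rose and 22.1% fell. The median of the 7 was 1.98 against 0.02, and the middle value of the coding genes alone was that of CYBA, 0.39. Both hairpins were compared with the same 2 control libraries, so their results are not independent. Of the myeloid markers, 5 of 9 tested rose and 1 fell with hairpin 1, and 5 of 10 rose and 1 fell with hairpin 2. The part of this shift in the change of the oxidase genes was not tested.

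CYBB, the catalytic subunit (ENSG00000165168.8, chromosome X, 37780011 to 37813461, plus strand), had the largest rise of the 7 with hairpin 2, and with hairpin 1 its log2 fold change was below that of NCF1. Its mean was 456 normalised reads in shNS and 1433 with hairpin 1. The authors' deposited table gives this a log2 fold change of 1.65 (95% interval 1.39 to 1.91, adjusted p = 2.8e-34). In the hairpin 2 table it stood at 446 in shNS and 4323 with the hairpin, 9.70-fold higher (3.28, 3.09 to 3.47, adjusted p = 1.2e-249 in the authors' deposited table). Only 2.44% of tested genes had a higher log2 fold change with hairpin 1, and 1.49% with hairpin 2. CYBA, its partner p22phox (ENSG00000051523.11, chromosome 16, 88643283 to 88651152, minus strand), was already abundant. It went from 3767 normalised reads to 4427 with hairpin 1, a log2 fold change of 0.23 that missed the threshold (0.01 to 0.45, adjusted p = 0.096 in the authors' deposited table). With hairpin 2 it went from 3685 to 4844 and rose by 0.39 (0.25 to 0.54, adjusted p = 2.8e-07 in the authors' deposited table). The log2 fold change of CYBB was above that of its partner with each hairpin, and the intervals of the pair did not overlap.

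NCF1, the organiser p47phox (ENSG00000158517.16), went from 766 normalised reads to 2674 with hairpin 1. Its log2 fold change was 1.80 (1.55 to 2.05, adjusted p = 3.2e-43 in the authors' deposited table). With hairpin 2 it went from 749 to 2953, a log2 fold change of 1.98 (1.77 to 2.19, adjusted p = 6.4e-76 in the authors' deposited table). NCF1B (ENSG00000182487.12) went from 263 to 831 with hairpin 1 and from 258 to 1647 with hairpin 2, at 1.66 and 2.68 on the log2 scale of the authors' deposited tables. NCF1C (ENSG00000165178.9) went from 564 to 1930.3 with hairpin 1 and from 552 to 3140.3 with hairpin 2, at 1.77 and 2.51 in the same tables. Added together, the 3 rows were 3.41-fold higher with hairpin 1 and 4.96-fold higher with hairpin 2. NCF1 made up 48.1% of this sum in shNS and 49.2% with hairpin 1, and 38.1% with hairpin 2. NCF1C exceeded NCF1 with hairpin 2 alone among the MOLM13 groups, at a ratio of 1.06 against 0.736 in shNS and 0.722 with hairpin 1. For a sum over rows no test could be made without values per library.

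NCF4, the subunit p40phox that binds a membrane phosphoinositide (ENSG00000100365.16, chromosome 22, 36860988 to 36878015, plus strand), rose modestly with each hairpin. It went from 2070.4 normalised reads to 2837 with hairpin 1, a log2 fold change of 0.45 (0.24 to 0.66, adjusted p = 0.00014 in the authors' deposited table). With hairpin 2 it went from 2025 to 2558, at 0.34 (0.17 to 0.50, adjusted p = 0.00031 in the authors' deposited table). RAC2, the GTPase of blood cells that activates the complex (ENSG00000128340.15, chromosome 22, 37225261 to 37244448, minus strand), had the highest count of the 7 in every group. It stood at 6777 and 6572 normalised reads in shNS and hairpin 1, a log2 fold change of -0.04 (-0.22 to 0.13, adjusted p = 0.77 in the authors' deposited table). With hairpin 2 it fell from 6628 to 5418, by 0.29 on the log2 scale (interval -0.43 to -0.16, adjusted p = 8.7e-05 in the authors' deposited table).

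**Figure D1:**
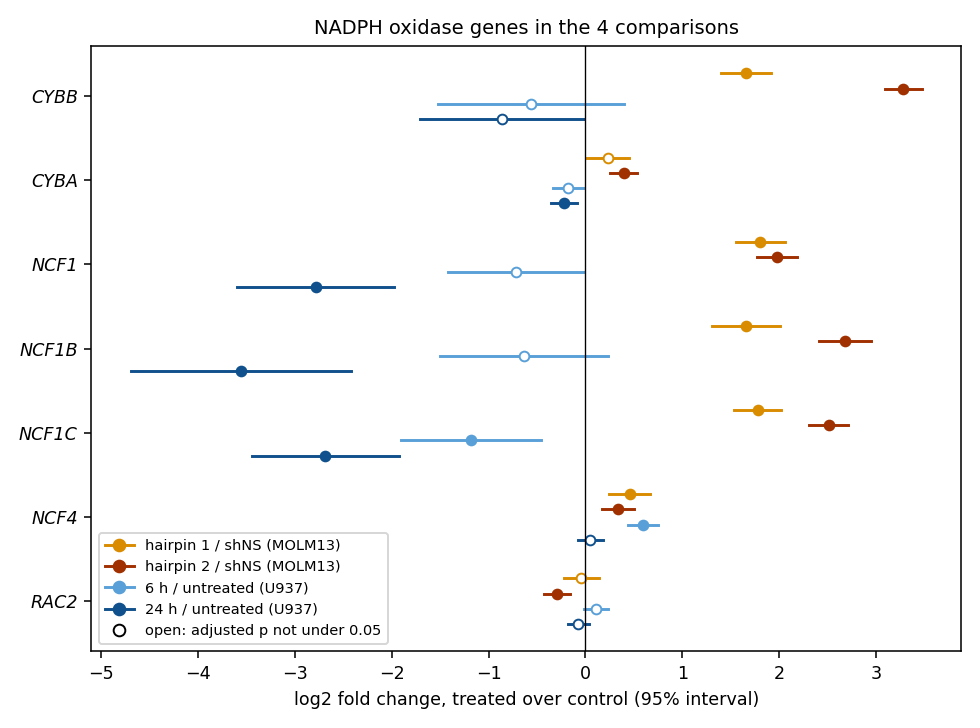
Log2 fold change of each gene (rows) in the 4 comparisons (colours), with 95% intervals worked out from the deposited p on the assumption of a normal test. Filled points have a deposited adjusted p under 0.05. CYBB and the 3 NCF1 rows lie right of 0 with each hairpin in MOLM13, and the NCF1 rows lie far left of 0 at 24 h in U937.

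The hairpins differed in how far they moved some of these genes. The difference of the log2 fold changes, hairpin 2 minus hairpin 1, was tested over 16264 genes from the authors' DESeq2 statistics, and with hairpin 2 a share of 9.11% was higher and 18.2% was lower. CYBB lay higher by 1.63 (SE 0.16, adjusted p = 2.3e-21), NCF1B by 1.02 (SE 0.23, adjusted p = 6.7e-05) and NCF1C by 0.73 (SE 0.16, adjusted p = 5.6e-05). The NCF1 row differed by 0.17 (interval -0.15 to 0.50, adjusted p = 0.53). The interval was -0.10 to 0.42 for CYBA and -0.39 to 0.15 for NCF4. RAC2 differed by -0.25 (-0.47 to -0.02), which did not pass after adjustment (adjusted p = 0.098). Since the shNS libraries enter on both sides, the standard error of this test is too large. The split of counts among NCF1, NCF1B and NCF1C is uncertain, so their separate differences are uncertain as well. The log2 ratio of their sum was 1.77 with hairpin 1 and 2.31 with hairpin 2, and this could not be tested.

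In U937 fewer of the 7 genes passed the test, and most of those that did were lower after 5-Ph-IAA. At 6 h NCF4 rose and NCF1C fell, 1 gene each of the 7, in a table where 10.9% of tested genes rose and 12.3% fell. At 24 h 4 of the 7 fell (the 3 NCF1 rows and CYBA) and 0 rose, where 19.9% of tested genes fell and 18.9% rose. The median log2 fold change of the 7 was -0.56 at 6 h and -0.86 at 24 h, against 0.01 over all tested genes at each time. Among the coding genes alone the middle value was that of CYBA at each time, -0.18 and -0.22. Counting the NCF1 rows once, where all 3 passed, leaves 2 falls at 24 h and 0 at 6 h. Both times share the untreated libraries. Of 7 tested myeloid markers 2 rose and 1 fell at 6 h, and 5 rose and 1 fell at 24 h, the integrin subunit ITGAM being the one that fell at 24 h. Their part in these results was not tested.

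CYBB had low counts in U937. Its mean was 40.9 normalised reads in untreated cells and 27.8 at 6 h, a log2 fold change of -0.56 (-1.52 to 0.40, adjusted p = 0.47 in the authors' deposited table). In the 24 h table it stood at 42.9 and 23.6, at -0.86 (-1.71 to -0.01, adjusted p = 0.10 in the authors' deposited table). Both intervals are wide, and a change of modest size was not detectable at this depth. CYBA was abundant and its interval narrow. It went from 1589 to 1401 at 6 h (-0.18, -0.34 to -0.02, adjusted p = 0.089 in the authors' deposited table). At 24 h it fell from 1673 to 1437, by 0.22 on the log2 scale (interval -0.35 to -0.09, adjusted p = 0.0036 in the authors' deposited table).

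The NCF1 rows showed the largest falls of the group in U937. NCF1 went from 83.0 normalised reads to 50.4 at 6 h (-0.72, -1.42 to -0.02, adjusted p = 0.14 in the authors' deposited table). By 24 h it had fallen from 87.2 to 12.7, 14.5% of the untreated level (log2 fold change -2.78, -3.59 to -1.97, adjusted p = 1.6e-10 in the authors' deposited table). NCF1C fell from 85.6 to 37.8 at 6 h (-1.18, adjusted p = 0.0085) and from 90.0 to 14.0 at 24 h (-2.68, adjusted p = 3.6e-11), by the authors' deposited tables. NCF1B went from 52.6 to 33.9 at 6 h (-0.64, adjusted p = 0.34) and fell from 55.3 to 4.71 at 24 h (-3.55, adjusted p = 7.3e-09), again by the authors' deposited tables. From the lowest log2 fold change at 24 h, NCF1B ranked 7, NCF1 30 and NCF1C 33 among 16104 tested genes. The sum of the 3 rows was 55.2% of the untreated level at 6 h and 13.5% at 24 h. These are low counts, so the size of each fold is loosely determined.

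NCF4 and RAC2 were well expressed in U937. NCF4 rose from 1406 to 2122 normalised reads at 6 h, 1.51-fold (log2 fold change 0.59, 0.44 to 0.74, adjusted p = 4.4e-13 in the authors' deposited table). At 24 h it stood at 1481 and 1535, at 0.05 (-0.07 to 0.18, adjusted p = 0.58 in the authors' deposited table). An antisense gene, NCF4-AS1, overlaps NCF4 by 27 exon bases and rose at 6 h as well (0.46, adjusted p = 0.0023), with a value of -0.09 at 24 h (adjusted p = 0.60), in the authors' deposited tables. The overlap was read from the GENCODE release used here for positions, and the release behind the deposited tables is not given. How reads of the 2 genes were assigned depends on the strand setting of the counting, which is not given either. Its part in the shared rise at 6 h was not tested. RAC2 stood at 2123 and 2289 at 6 h (0.11, -0.02 to 0.23) and at 2236 and 2124 at 24 h (-0.07, -0.18 to 0.03), neither past the threshold in the authors' deposited tables.

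**Figure D2:**
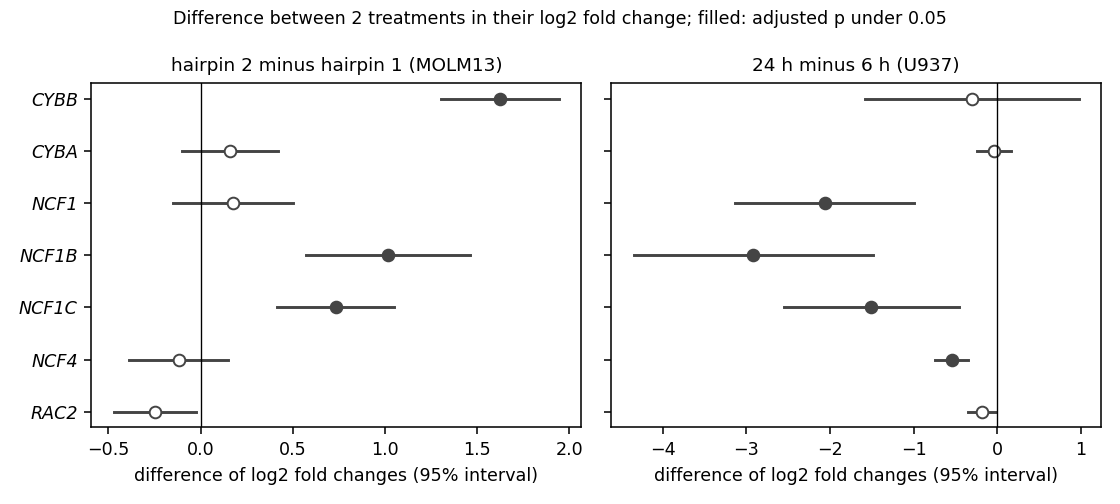
Difference of log2 fold changes between the hairpins (left) and between the times (right) for each gene, with 95% intervals. Filled points passed the test of the difference. CYBB, NCF1B and NCF1C lie higher with hairpin 2, and the 3 NCF1 rows and NCF4 lie lower at 24 h than at 6 h.

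Between 6 h and 24 h the difference of the log2 fold changes was tested over 13921 genes, of which 10.9% lay higher and 12.1% lower at 24 h. NCF1 lay lower at 24 h by a difference of -2.06 (SE 0.55, adjusted p = 0.0013), NCF1B by -2.92 (SE 0.73, adjusted p = 0.00057) and NCF1C by -1.50 (SE 0.53, adjusted p = 0.024). NCF4 lay lower as well, at -0.54 (SE 0.10, adjusted p = 1.1e-06). CYBB differed by -0.31 (-1.58 to 0.97) and CYBA by -0.04 (-0.24 to 0.17). RAC2 differed by -0.18 (-0.35 to -0.02, adjusted p = 0.11).

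The log2 fold changes in MOLM13 and at 24 h in U937, which share no control, differed past the test for most of these genes. NCF1 lay 4.59 higher with hairpin 1 than at 24 h (SE 0.43, adjusted p = 2.0e-24) and 4.76 higher with hairpin 2 (SE 0.43, adjusted p = 1.4e-27). CYBB lay 2.52 higher (SE 0.45, adjusted p = 2.9e-07) and 4.14 higher (SE 0.44, adjusted p = 1.6e-19). CYBA lay 0.45 and 0.61 higher, and NCF4 0.40 and 0.29 higher. RAC2 differed by 0.03 with hairpin 1 (-0.18 to 0.24) and by -0.22 with hairpin 2 (adjusted p = 0.031), a call that ended when the difference was centred on the median gene (-0.08, adjusted p = 0.49). In these sets 18.9% (hairpin 1) and 18.8% (hairpin 2) of tested genes lay higher in MOLM13, and 17.8% and 26.9% lower. Cell line, the way of targeting IGF2BP3 and the time differ together here and cannot be told apart. The labels also give total RNA for MOLM13 and mRNA for U937, but the protocol given for both describes capture of mRNA on beads, so whether the libraries differ in this is not settled.

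**Figure D3:**
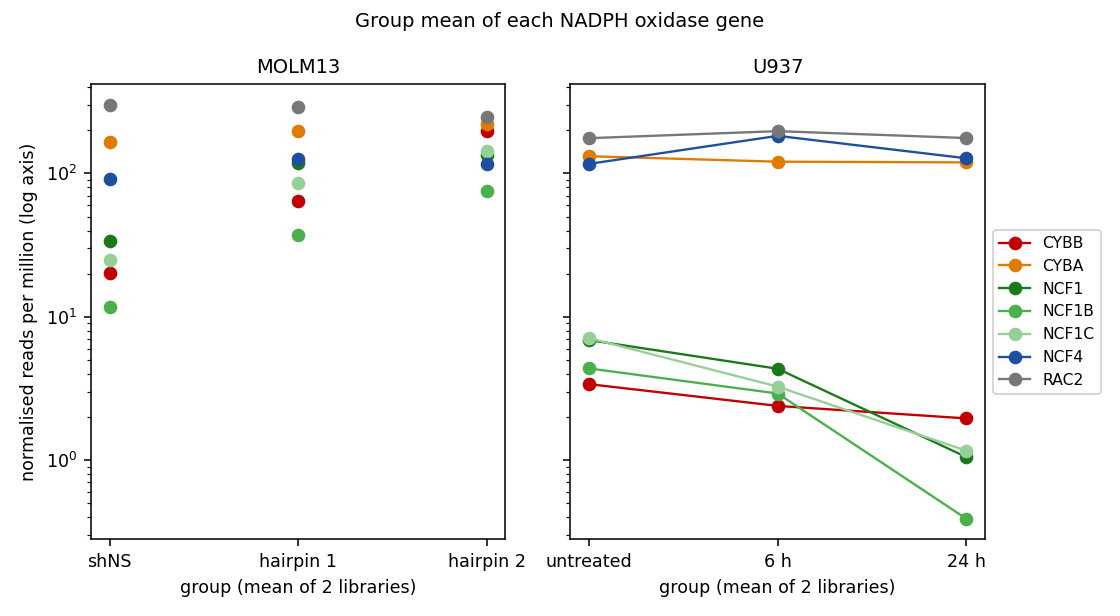
Group mean of each gene in CPM (log axis) in MOLM13 (left) and U937 (right). RAC2, CYBA and NCF4 stay between 91.5 and 299 in every group, while CYBB and the NCF1 rows range from 0.392 to 197.

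The levels separated into a steady and a variable set. In CPM, CYBB stood at 20.1 in shNS, 63.8 with hairpin 1, 197 with hairpin 2, 3.39 in untreated U937, 2.39 at 6 h and 1.96 at 24 h. NCF1 stood at 33.8, 119, 135, 6.89, 4.35 and 1.05 in the same order. CYBA ranged from 119 to 221, NCF4 from 91.5 to 183 and RAC2 from 176 to 299 over the 6 groups. Tables were normalised separately, so levels across the lines are a description.

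Levels of different genes were compared per kilobase of 1 transcript a gene in GENCODE 29, for the 5 coding members. In shNS the order was CYBA (209 CPM per kilobase), RAC2 (202), NCF4 (65.5), NCF1 (24.2) and CYBB (4.66). The same order held in each other group, except that NCF1 (96.5) passed NCF4 (83.6) with hairpin 2. NCF1 enters here by its own row, whose split from NCF1B and NCF1C is uncertain. Its place beside NCF4 is therefore uncertain in the hairpin groups. CYBB was lowest throughout. The level of CYBA was 44.9 times that of CYBB in shNS, 16.8 times with hairpin 1 and 6.08 times with hairpin 2. In U937 this ratio was 211 in untreated cells, 274 at 6 h and 331 at 24 h. Whether neighbours in these orders differ beyond their spread could not be tested without values per library.

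**Figure D4:**
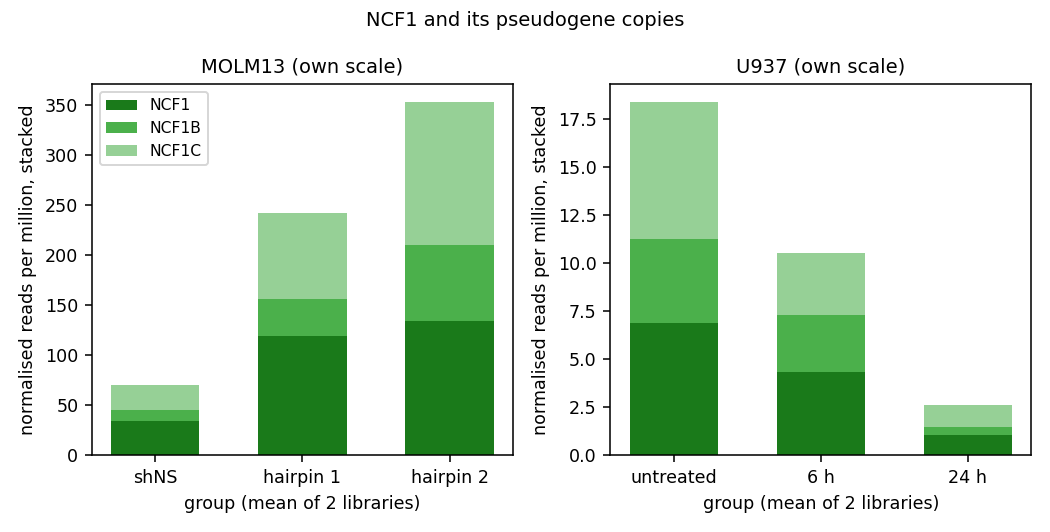
Stacked group means of NCF1, NCF1B and NCF1C in CPM, with a separate axis for each line. The bars are taller with each hairpin than in shNS, and the bar at 24 h is the shortest in U937.

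Genes with the most similar pattern were named by the smallest Euclidean distance over the 4 log2 fold changes, among 9750 genes or 9749 where the member itself is one of them, tested in all tables with a mean count of at least 50 in each. For CYBB these were the integrin subunit gene ITGA6 (distance 0.63, with log2 fold changes of 1.96 and 3.20 for the hairpins and -0.40 and -0.34 for the times), SORL1 (0.82) and CORO2A (0.85). NCF1 had NCF1C (0.71), GPAT3 (1.29) and CPVL (1.43), and NCF1C shares its sequence. CYBB and NCF1 lay 2.33 apart from each other, farther than each from those genes. CYBA had RNF123 (0.04), TTLL4 (0.07) and STARD3 (0.09), and NCF4 had HGSNAT (0.09), VRK2 (0.14) and the glutathione synthesis gene GCLC (0.16). RAC2 had CEP250 (0.08), UBE2D3 (0.08) and a gene listed by its Ensembl ID alone. Distances were small where all 4 changes of a member were small. CYBB had mean counts of 34.3 at 6 h and 33.2 at 24 h, under the minimum of 50 set for the other genes. Its log2 fold changes there had SEs of 0.49 and 0.43, so the order of its nearest genes is loosely determined.

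The wider oxidase family and its helpers were read from a list of 16 genes. For this and the next 4 lists, the shares of all tested genes that rose and fell were 17.7% and 16.0% with hairpin 1, 19.4% and 22.1% with hairpin 2, 10.9% and 12.3% at 6 h, and 18.9% and 19.9% at 24 h. The median log2 fold change over all tested genes lay between -0.01 and 0.02 in the 4 tables. With hairpin 1, 2 of 8 tested members rose and 1 fell, near the shares of all genes. With hairpin 2, 5 of 9 rose, above the 19.4% of all genes, and 2 fell, near the 22.1% (medians -0.06 and 0.32). The voltage-gated proton channel HVCN1, which balances the charge that the oxidase moves, rose from 594 to 1170.1 normalised reads with hairpin 1. With hairpin 2 HVCN1 rose less, from 581 to 724 (0.98 and 0.32 for the 2 hairpins in the authors' deposited tables). NOXA1, an activator subunit of the NOX1 enzyme, rose from 52.4 to 130.4 with hairpin 1 and from 51.3 to 368 with hairpin 2 (1.32 and 2.84 in the authors' deposited tables). NOX5 rose with hairpin 2 from 4.93 to 44.1, and the GTPase gene RAC3 fell from 59.7 to 17.0, in group means worked out from the authors' deposited table. At 6 h 2 of 8 rose and 1 fell (10.9% and 12.3% of all genes), and at 24 h 1 of 10 rose and 3 fell (18.9% and 19.9% of all genes), which is no result about so short a list. SH3PXD2A, which codes for the scaffold TKS5, rose from 647 to 2343 at 6 h (1.86 in the authors' deposited table) and from 681 to 1011 at 24 h (0.57).

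Upstream control of the oxidase, such as receptors, protein kinase C and exchange factors for RAC, was covered by 25 genes. In MOLM13 15 of 25 rose and 1 fell with hairpin 1, against 17.7% and 16.0% of all genes. With hairpin 2, 15 rose and 4 fell, against 19.4% and 22.1% (medians 0.29 and 0.37). PRKCA, a protein kinase C gene, rose with both hairpins by 1.27 and 1.68 in the authors' deposited tables. The Fc receptor gene FCGR2A rose with both hairpins (1.77 and 1.45), and the formyl peptide receptor gene FPR1 (from 14.3 to 115 normalised reads) and the complement receptor gene C5AR1 (1.69) rose with hairpin 2, by the authors' deposited tables. In U937 1 of 23 tested rose and 5 fell at 6 h, against 10.9% and 12.3% of all genes. At 24 h 3 rose, near the 18.9% of all genes, and 10 fell, against 19.9% (medians -0.09 and -0.08). PIK3CG fell by 0.75 at 6 h and the kinase gene SYK by 0.44. At 24 h C5AR1 fell from 30.6 to 3.91 normalised reads and ITGAM from 80.5 to 24.0 (-2.97 and -1.75 in the authors' deposited table).

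Transcription factors described at the promoters of these genes were a list of 13. With hairpin 1, 5 of 11 tested rose and 2 fell (17.7% and 16.0% of all genes), among them IRF8 (0.98) upward and MEIS1 (-0.50) downward in the authors' deposited table. With hairpin 2, 5 of 12 rose and 4 fell (19.4% and 22.1% of all genes), among them CEBPB (1.06), HOXA9 (-1.14) and HOXA10 (-2.30). At 6 h 6 of 12 rose and 2 fell (10.9% and 12.3% of all genes). SPI1, which codes for PU.1, rose from 1043 to 1456 normalised reads (0.48 in the authors' deposited table), and CEBPB fell by 0.68. SPI1 also rose with hairpin 1 (0.31), with hairpin 2 (0.45) and at 24 h (0.80), by the authors' deposited tables. At 24 h 8 of 12 rose and 1 fell (18.9% and 19.9% of all genes), led by ELF1 (1.25), HOXA9 (1.17) and HOXA10 (0.82) in the authors' deposited table. HOXA9 and HOXA10 fell with hairpin 2 and rose at 24 h.

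Enzymes that supply NADPH (10 genes) rose in 6 cases and fell in 1 with hairpin 1, against 17.7% and 16.0% of all genes. They rose in 3 and fell in 2 with hairpin 2, near the 19.4% and 22.1% of all genes. IDH1, which makes NADPH from isocitrate, rose with each hairpin (1.01 and 1.01 in the authors' deposited tables). MTHFD1 fell by 1.71 with hairpin 2. In U937 1 of 9 tested rose at 6 h, near the 10.9% of all genes, and 5 fell, against 12.3%. At 24 h 0 rose and 8 fell, against 18.9% and 19.9% (medians -0.31 and -0.41). IDH1 fell by 0.78 at 6 h and 0.69 at 24 h, and PGD by 0.88 at 24 h, in the authors' deposited tables.

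Genes that handle superoxide and peroxide (15 in the list) rose in 3 of 14 cases and fell in 2 with hairpin 1, near the 17.7% and 16.0% of all genes. With hairpin 2 they rose in 4 and fell in 6, against 19.4% and 22.1%. SOD2, the mitochondrial superoxide dismutase, rose by 0.47 with hairpin 1, and catalase CAT by 1.38 and the lipid peroxidase GPX4 by 1.19 with hairpin 2, in the authors' deposited tables. Myeloperoxidase MPO, which uses the hydrogen peroxide formed from superoxide, fell from 416 to 148 normalised reads with hairpin 1 and from 407 to 72.7 with hairpin 2. At 6 h 2 of 13 rose, near the 10.9% of all genes, and 8 fell, against 12.3%. At 24 h 2 rose, near the 18.9%, and 11 fell, against 19.9% (medians -0.30 and -0.49). PRDX1, a peroxiredoxin, fell by 0.88 at 6 h and 1.04 at 24 h in the authors' deposited tables. CAT fell at 6 h (-0.41) and rose by 0.92 at 24 h, in the same tables.

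**Figure D5:**
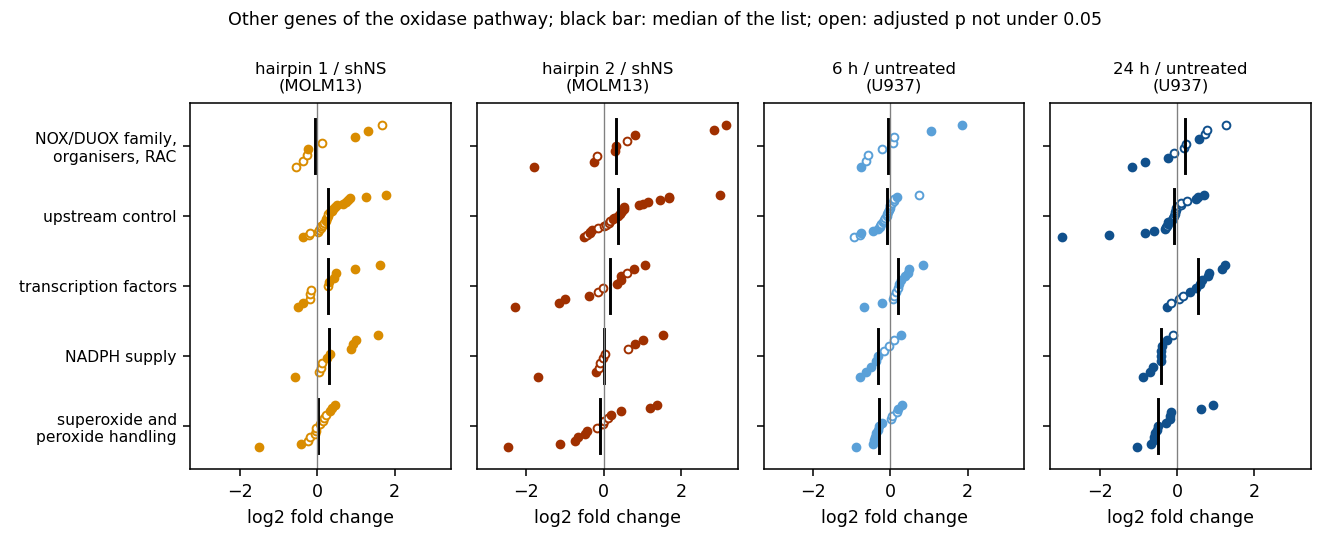
Log2 fold change of every tested gene of the 5 pathway lists (rows) in the 4 comparisons (panels). Black bars mark list medians, and open points did not pass the threshold. The upstream control genes have medians of 0.29 and 0.37 with the hairpins, and the NADPH supply and peroxide genes have medians below 0 at 6 h and 24 h.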

How the data were processed

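Trimming used cutadapt 4.1, alignment HISAT2 2.1.1 on hg38 and gene counting HTSeq 2.0.2, with DESeq2 for the tests, all per the submitters' processing notes. Per the file headers, the signal value is the DESeq2 base mean, a count divided by size factors by the authors and averaged over 4 libraries. The log2 values are the fold changes the authors deposited, and the p-value is the adjusted p they deposited. The form of the test, any shrinkage and the annotation release are not given in the sources used here.

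The Benjamini-Hochberg adjustment was inverted to obtain unadjusted p-values, and standard errors and 95% intervals assume a normal test. Group means follow from base mean and fold change, and the control means of a line's tables kept a constant ratio to within 0.205%. Differences between comparisons were divided by their combined standard error and adjusted over all genes tested in both, with steps tested on simulated data (Python 3.11.15, scipy 1.17.1, pandas 2.3.3). CPM levels divide by the summed group means. Sequences came from GENCODE 29 and RefSeq, and an aligner in Biopython 1.88 gave identities. The members and gene lists were chosen with earlier results of these data known. The text names the members, IGF2BP3, some of the up to 3 most changed called genes per list and comparison, and the 3 nearest genes by pattern, while other genes were chosen after their values were seen. As the tables hold no values per library, the authors' statistics are the main result and no count model was refitted. Alternatives covered the threshold, a minimum fold, low counts, Bonferroni adjustment, centring and the pseudogenes. As no source says the libraries of a group were separate cultures, p-values may measure technical spread alone.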

Additional observations from a re-analysis of the deposited data

Results flagged for a closer look

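Each of these results is a difference between 2 log2 fold changes of the authors' DESeq2 tables that passed the test of the difference. Between the hairpins, hairpin 2 minus hairpin 1, the differences were 1.63 for CYBB, 1.02 for NCF1B and 0.73 for NCF1C. Between the times, 24 h minus 6 h, they were -2.06 for NCF1, -2.92 for NCF1B, -1.50 for NCF1C and -0.54 for NCF4. The split of counts among NCF1, NCF1B and NCF1C is uncertain, and with it each of their separate differences.

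Between the lines, hairpin 1 in MOLM13 minus 24 h in U937, the differences were 2.52 for CYBB, 0.45 for CYBA, 4.59 for NCF1, 5.21 for NCF1B, 4.46 for NCF1C and 0.40 for NCF4. For hairpin 2 minus 24 h they were 4.14 for CYBB, 0.61 for CYBA, 4.76 for NCF1, 6.23 for NCF1B, 5.19 for NCF1C, 0.29 for NCF4 and -0.22 for RAC2. Groups were not searched for a library far from the others, since the tables hold no values per library.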

How the results depend on the processing

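For single genes only centring on the median gene could change a direction, since the other settings kept the log2 fold change. No direction reversed under centring. Over all settings 195 of 210 values for single genes kept their side of the threshold while 15 lost the call. A threshold of 0.01, a minimum of 2-fold and Bonferroni adjustment could only take calls away. Of 56 counts of members that passed, 45 stayed within 1.5 times and 11 did not. Counting the NCF1 rows once where all 3 passed, or leaving out NCF1B and NCF1C, gave 3 rises with hairpin 1, 0 falls at 6 h and 2 falls at 24 h. A minimum of 2-fold gave 0 falls with hairpin 2 and 0 rises at 6 h. Bonferroni adjustment gave 0 falls with hairpin 2 and 0 falls at 6 h. Adjusting over genes with a base mean of at least 50 gave 2 falls at 24 h, since NCF1 and NCF1B are then not tested. Under Bonferroni adjustment NCF4 lost its call with hairpin 1 (DESeq2 p adjusted to 0.36) and hairpin 2, RAC2 with hairpin 2 (0.45), NCF1C at 6 h and CYBA at 24 h. At a threshold of 0.01 the differences of NCF1C between the times and of NCF4 and RAC2 between hairpin 2 and 24 h lost theirs. No paired analysis was possible because the tables hold no values per library. For the same reason another count model, other size factors, no filter on low counts, leaving out each library and a test of the summed NCF1 rows were not run, so whether 1 library decides a value was not tested.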
